A study of Mus musculus with 3 samples.

Results

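The 10 genes described here encode repressors of the helix-loop-helix class: Hes1, Hes5 and Hes6, Hey1, Hey2 and Heyl, and Id1, Id2, Id3 and Id4. They were chosen by name, as the probe sets whose annotation held that gene symbol and no other, and are 10 of 22180 genes named in this way. All 10 were measured, 9 of them by 1 probe set and Hes5 by more than 1, for which the probe set with the higher mean was used. Hes and Hey proteins bind DNA and repress proneural genes, and most of them are textbook targets of the Notch receptors. Id proteins lack a DNA-binding region and act by capturing the E proteins that proneural factors need as partners. They are textbook targets of bone morphogenetic protein (BMP) signalling. In the layer of stem cells that lines the lateral ventricles (the ventricular-subventricular zone, V-SVZ) both groups are known for keeping precursors undifferentiated. Hes6 is an exception, known for favouring neuronal differentiation.

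Total RNA of neurospheres was measured on 3 Affymetrix arrays, all of the same group: wild-type (WT) CD1 mice, postnatal day 8 (P8). Per the labels' protocols, V-SVZ cells of day 7 or 8 pups were plated at 10 cells per microlitre and grown as floating spheres for 7 days in medium holding FGF (10 ng/ml) and EGF (20 ng/ml), each pup in its own culture. Neurospheres are mixed cultures of stem cells, precursors and their progeny under growth factors, so they model the tissue only in part. Nothing states that each array holds a different pup, so p-values measure only how far these 3 arrays vary, and that variation may be technical. There was no second group. The data show whether each repressor gave a signal over background, how much the arrays differed, and which genes of the Notch and BMP pathways were detected beside them. In such whole-culture RNA, fewer expressing cells and less RNA per cell cannot be told apart.

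The deposited values are log2 signals, and the background was read from genes of the nose. The reference level of an array was the 95th percentile of its signals for odorant and pheromone receptors (1405 olfactory and vomeronasal receptor probe sets), 5.63, 5.53 and 5.71 on arrays 1, 2 and 3. A gene was called above it when limma's one-sided moderated test gave a Benjamini-Hochberg adjusted p, taken over the 22180 genes, under 0.05. That test shared a common spread among genes of like signal, so its p-values are very small for any clear margin and are not printed for the members. A margin is a signal minus the reference level of its own array, on the log2 scale. The test was fitted to margins, so its spread includes the shift of the level between arrays. Probe sets bind with different strength, so signals of different genes were not set in order. Of 12 listed markers of stem cells and radial glia, 12 passed the reference level. Among them were Sox2 (11.39 ± 0.073, SD, n = 3), Nes (8.50 ± 0.035) and Vim (13.49 on each array). The marker lists were chosen with earlier results of these data known, so this count is no independent check of the label. Astrocyte markers were above in 7 of 8 cases, oligodendrocyte precursor markers in 6 of 6, and neuroblast and neuron markers in 8 of 9. Of all genes, 59.1% were above.

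Sequences around the gene starts were searched for motifs of the Notch and BMP pathways and of Hes proteins. RefSeq sequences (GRCm38.p6) from 250 bases before to 50 bases after a transcript start were matched by symbol for 6 of the 10 members, Hes5, Hes6, Hey2, Id2, Id3 and Id4, in 7 start regions. The recognition sequence of Rbpj, the DNA-binding protein of the Notch complex, was searched on both strands as GTGGGAA. It stood 2 times in the start region of Hes5 and 2 times in that of Hey2, and in none of the start regions of Hes6, Id2, Id3 and Id4. Among 32544 start regions of this length, 6.39% held it at least once and 0.255% held it 2 or more times. The motif was chosen with the sequences in view, so these shares do not measure how unusual the matches are. The windows of 29 bases around the 4 matches are printed because Hes5 and Hey2 share this feature, 5′ to 3′ on the gene's strand, with the match in capitals (TTCCCAC is the same sequence on the opposite strand).
Hes5, first window, chr4:154960686-154960714, plus strand: gggcgagcgcgTTCCCACagcccggacat
Hes5, second window, chr4:154960829-154960857, plus strand: ggccgccgagtGTGGGAAcggccgcggcg
Hey2, first window, chr10:30842973-30843001, minus strand: gcgcggtggcaTTCCCACgcctctgccaa
Hey2, second window, chr10:30842770-30842798, minus strand: tgggctgcagcGTGGGAAagaacctccag

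In both genes the first match lay on the opposite strand and the second on the gene's own strand. The Hes5 matches spanned bases -226 to -220 and -83 to -77 counted from the transcript start. In Hey2 they spanned -207 to -201 and -4 to 3. A shorter core, TGGGAA, which lies within the longer motif, also occurred once in Id4, at -245 to -240, and was present in 25.4% of all start regions. The GC-rich motif GGCGCC, known from Smad-binding elements of BMP target genes, occurred 4 times in the start region of Hes5, and once each in those of Hey2, Id2 and Id4. Of all start regions, 11.9% held at least 1 and 2.06% held 2 or more. The start regions of Id3 and Hes6 held none. Of the motifs bound by Hes proteins, the N-box CACNAG occurred 2 times in 1 Hes6 start region and once each in Id2 and Id4, against 42.6% of all start regions with at least 1. The class C site CACGNG occurred once, in the other Hes6 start region, against 27.6%. Both motifs were searched on both strands. Thus GTGGGAA occurred in Hes5 and Hey2 and in no Id or Hes6 start region, while GGCGCC occurred in Notch-linked and in BMP-linked genes. The N-box occurred in Hes6, Id2 and Id4. Hes1, Hey1, Heyl and Id1 had no start region to search. GC content was 60% to 73.3% in the 7 start regions and 53% in the median start region. These matches describe letters and show no binding.

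The 250 bases before the start of 3 Id genes are printed so that their starts can be read beside the Hes5 and Hey2 windows, with GGCGCC in capitals where it occurs. None holds GTGGGAA, like Hes6 and like most start regions.
Id2, chr12:25096093-25096342, minus strand: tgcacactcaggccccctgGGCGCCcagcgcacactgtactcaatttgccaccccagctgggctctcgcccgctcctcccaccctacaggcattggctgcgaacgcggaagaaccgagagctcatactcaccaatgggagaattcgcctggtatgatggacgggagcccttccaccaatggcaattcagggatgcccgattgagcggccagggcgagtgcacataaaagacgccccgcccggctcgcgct
Id3, chr4:136143572-136143821, plus strand: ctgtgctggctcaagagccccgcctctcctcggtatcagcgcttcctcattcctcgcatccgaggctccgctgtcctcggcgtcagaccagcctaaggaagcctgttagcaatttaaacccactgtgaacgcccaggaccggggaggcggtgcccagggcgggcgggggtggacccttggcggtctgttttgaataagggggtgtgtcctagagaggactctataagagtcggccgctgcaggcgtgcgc
Id4, chr13:48260866-48261115, plus strand: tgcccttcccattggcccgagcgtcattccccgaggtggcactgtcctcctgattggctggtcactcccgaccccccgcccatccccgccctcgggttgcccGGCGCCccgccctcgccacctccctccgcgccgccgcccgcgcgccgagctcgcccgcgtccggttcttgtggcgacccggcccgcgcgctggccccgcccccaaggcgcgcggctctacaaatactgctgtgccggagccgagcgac

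All 10 repressor genes were above the reference level, where 59.1% of all genes were. The median margin of the 10 was 3.53, beside 0.76 over all genes. All genes include the receptor genes that set the level. Most of those lie under it by construction, which lowers the share and the median of all genes. Against a stricter level, the 99th percentile of the receptors (6.42, 6.09 and 6.69 on the 3 arrays), 9 of the 10 exceeded it on each array, beside 46.6% of all genes. Heyl was the exception. In the limma test, 10 members were called against the 90th percentile, beside 66.7% of all genes, and 8 against the 99th, beside 44.9%. Against the second set of reference genes, the keratin-associated, defensin and bitter taste receptor genes, 8 members were called, beside 43.5%.

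**Figure D1:**
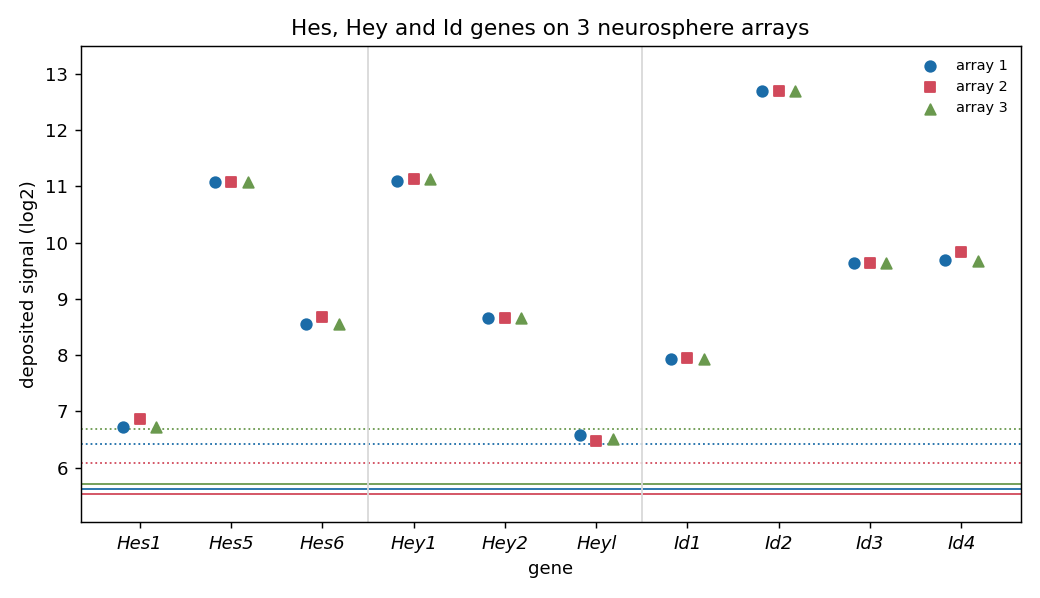
Deposited log2 signal (y axis) of the 10 genes (x axis) on arrays 1, 2 and 3, with 1 point per array. Solid lines mark the 95th and dotted lines the 99th percentile of the receptor probe sets of the array in the same colour: all points lie over their solid line, and Heyl on array 3 (6.51) lies under its dotted line at 6.69.

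Among the Hes genes, Hes1, a repressor that oscillates in neural precursors, had signals of 6.73, 6.87 and 6.73 on arrays 1, 2 and 3. Its mean was 6.78 ± 0.082 (SD, n = 3) and its mean margin 1.15. The signal passed the 99th percentile of the receptors by 0.31, 0.78 and 0.044, so on array 3 it lay just over that level. When the test was run against the 99th percentile, the call of Hes1 ended (margin 0.38, limma adjusted p = 0.0900), as it did against keratin-associated, defensin and bitter taste receptor genes (margin 0.34, limma adjusted p = 0.206). These levels moved more between arrays than Hes1 did, and that shift enters the p-values. The 99th percentile was 6.42, 6.09 and 6.69, and the level of the other genes 6.40, 6.11 and 6.81. Hes1 was thus called against the 95th percentile of the nose receptors and not against either stricter level, and array 2 was its high array.

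Hes5, the Notch effector of neural stem cells, had 11.07 on each of the 3 arrays, with a mean margin of 5.45. A second Hes5 probe set, not used in the counts, read 7.11, 7.11 and 7.41, a mean of 7.21 ± 0.17, and was also over the 99th percentile of each array. With that probe set in place of the brighter probe set the margin was 1.59 and the call held. Both Hes5 probe sets were thus called. Their levels are not compared, and which part of the transcript each reads is not stated. Hes6 is the member known for favouring neuronal differentiation and for opposing Hes1. It had 8.55, 8.68 and 8.55, with a margin of 2.97.

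The Hey genes encode Notch effectors that pair with Hes proteins. Hey1, known from arterial endothelium and from quiescent stem cells, had 11.10, 11.13 and 11.13 (margin 5.49). Hey2, also known from arteries and heart, had 8.65, 8.67 and 8.65 (margin 3.03). Heyl, known from smooth muscle and neural precursors, had 6.58, 6.47 and 6.51, a mean of 6.52 ± 0.054 (SD, n = 3) and a margin of 0.90. Its distance from the 99th percentile was 0.16, 0.38 and -0.17, so it lay under that level on array 3. Heyl was no longer called when the 99th percentile served as reference (limma adjusted p = 0.581) and with the second set of reference genes (limma adjusted p = 0.758). Here too the shift of these levels between arrays enters the p-values.

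Blood vessel cells are another source of Hey transcripts, and their markers were read on the same arrays. Of 10 endothelial markers, 1 was above the reference level, Kdr (6.84 ± 0.064), and 9 were not, including Pecam1 (5.30) and Cdh5 (5.48 ± 0.058). The mean endothelial marker signal was 5.29, 5.29 and 5.30 on the 3 arrays. Of 10 mural and smooth muscle markers, 5 were above, including Pdgfrb (6.99 ± 0.11), Rgs5 (7.25 ± 0.12) and Acta2 (7.45 ± 0.0092), and their mean signal was 6.00, 5.92 and 6.06. The mural markers Abcc9 (5.72), Kcnj8 (4.89) and Des (5.34) were not above. Microglia markers were above in 4 of 8 cases and ependymal markers in 3 of 7. The endothelial share was 10%, beside 59.1% of all genes. The mural (50%), microglia (50%) and ependymal (42.9%) shares were nearer to 59.1%. With so few markers, these 3 shares are not read as a difference from all genes. The part of these cells in the Hey signals was not tested.

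The Id genes encode the capturing proteins. Id1, used as a marker of V-SVZ stem cells of astrocyte type, had 7.93, 7.96 and 7.93 (margin 2.32). Id2 had 12.70, 12.69 and 12.70 (margin 7.07), and Id3 had 9.64 on each array (margin 4.02). Both are textbook BMP targets. Id4, which is known from neural precursors and astrocytes, had 9.70, 9.83 and 9.68 (margin 4.11). All 4 Id genes passed the 99th percentile of the receptors on each array, and their calls held under every alternative tried.

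The arrays differed little for these genes. Hes5 and Id3 had exactly equal values on all 3 arrays, and 8 of the 10 were exactly equal on at least 2 arrays, as were 72.8% of the 13104 genes above the reference level. Because of such ties, a small SD here can be less than the real variation between cultures. The range over the 3 arrays had a median of 0.029 for the members and 0.030 for the genes above the reference level. It reached 0.15 at most among the members (Id4), while 15.3% of the detected genes spanned more than 0.2. Array 2 alone was highest for 5 members, Hes1, Hes6, Hey2, Id1 and Id4, and alone lowest for Heyl and Id2. Of genes above the reference level, 34.3% were highest on array 2 alone.

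**Figure D2:**
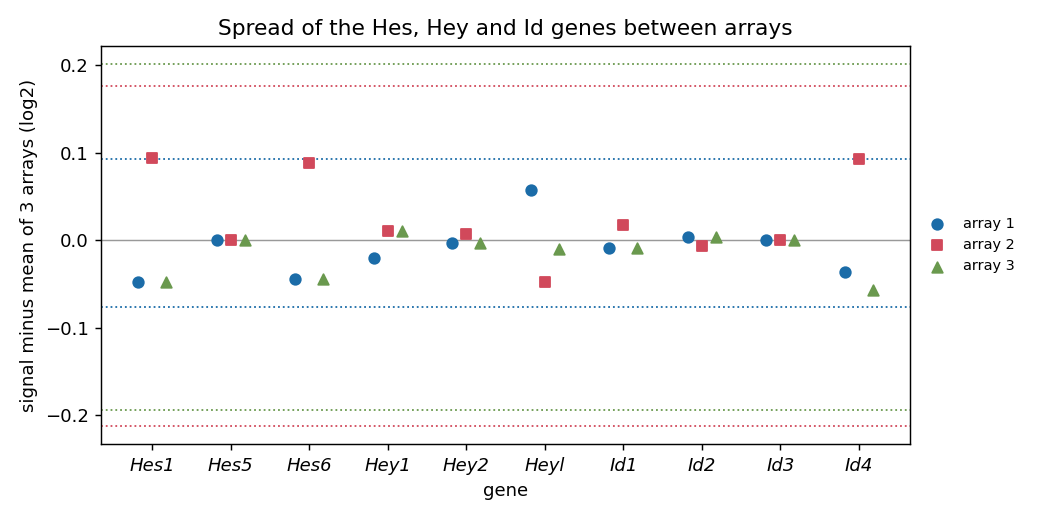
Signal minus the mean of the 3 arrays (y axis, log2) for each of the 10 genes (x axis), with 1 point per array. Dotted lines hold the central 95% of genes above the reference level on the array of that colour, from -0.21 to 0.18 on array 2: the points of Hes1, Hes6 and Id4 on array 2 lie over those of the other 2 arrays, and all points lie within the lines of their own array.

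A test of whether any member varied more than genes of like signal could not be used. The F test of limma's residual variance called 0 of 10 members and 0% of 13104 genes, and no gene had an unadjusted p under 0.05 (0 of 13104). When a change of 1 log2 unit on array 2 was added to the deposited values of 100 genes, the same test recovered 0 of them, so its count says nothing about whether the arrays differed.

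Upstream of the Hes and Hey genes, genes of the Notch receptors, ligands and signal transmission were read from fixed lists. The receptor genes Notch1 (10.96 on each array), Notch2 (9.63 ± 0.0096) and Notch3 (8.84 ± 0.019) were above the reference level. Notch4, a receptor known from endothelium, was above as well, with 6.61, 6.20 and 6.96. Its range of 0.77 was larger than that of any of the 10 repressors. Of 8 ligand and ligand-like genes, 7 were above, 87.5% beside 59.1% of all genes. Dll1 had 9.28 ± 0.026, and Dll3, a ligand that acts within its own cell, 9.53 ± 0.023. Jag1 had 6.80 ± 0.060, Jag2 6.08 ± 0.071, Dlk1 5.83, Dlk2 6.12 ± 0.18 and Dner 9.74. Dll4, a ligand of sprouting vessels, had 5.27 and was not above. In the limma test at the 99th percentile, 3 of the 8 were above, beside 44.9% of all genes. Without a test, 4 of the 8 exceeded that level on each array, beside 46.6%. The larger share of ligand genes thus did not hold in the test at that level, and was near the share of all genes without it.

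**Figure D3:**
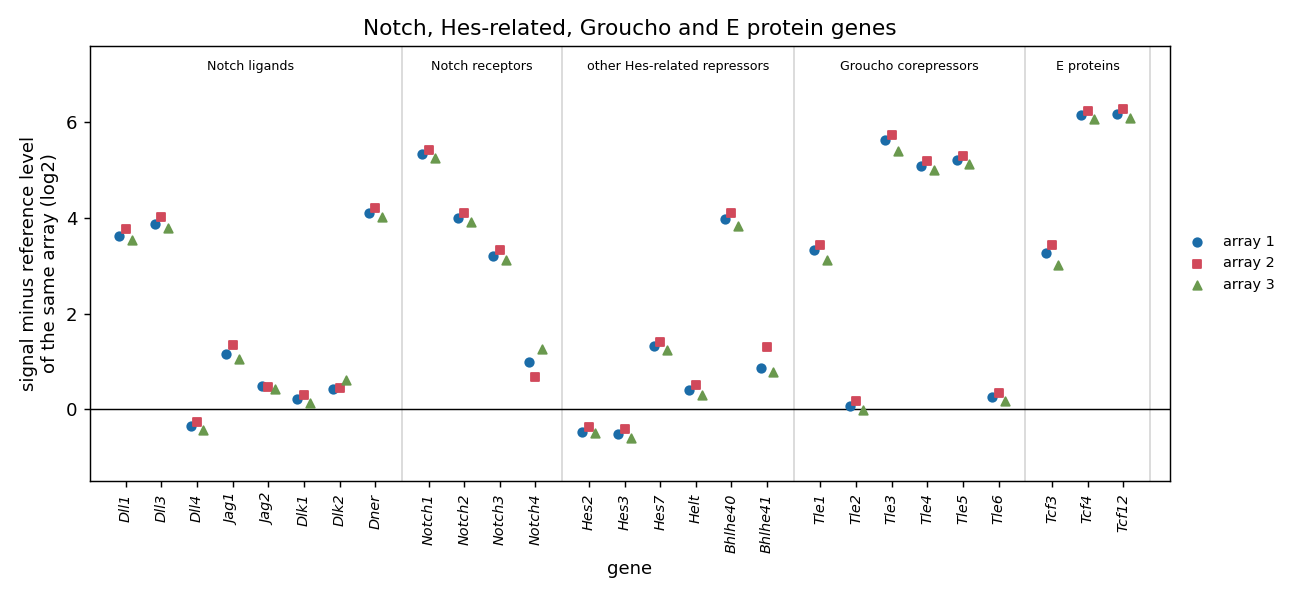
Margin over the reference level of the same array (y axis, log2) for genes of Notch ligands, Notch receptors, other Hes-related repressors, Groucho corepressors and E proteins (x axis), with 1 point per array. The line at 0 is the reference level: Dll4, Hes2 and Hes3 lie under it on each array, and the E proteins Tcf4 (6.15) and Tcf12 (6.18) lie far over it.

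Genes that process and transmit the Notch signal were above in 14 of 14 measured cases, beside 59.1% of all genes. They include Adam10 (10.54), Adam17 (9.64 ± 0.074) and the gamma-secretase genes Psen2 (6.44), Psenen (12.41), Ncstn (10.00) and Aph1a (11.52 ± 0.028), whose products cut the receptor. Chosen after its value was seen, Rbpj, whose protein reads the sequence printed above, had 10.28, 10.18 and 10.11 and a margin of 4.56. Of the genes that tune the pathway, 15 of 15 were above, beside 59.1% of all genes. The sugar transferases Lfng (10.41 ± 0.025), Mfng (7.56 ± 0.030), Rfng (7.22 ± 0.066), Pofut1 (6.96) and Poglut1 (10.58 ± 0.0060) and the ligase Mib1 (10.21) were the first on that list.

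The other Hes-related repressors gave a mixed picture. Hes7, the somite clock gene, had 6.94 on each array and was above the reference level, as were Bhlhe40 (9.59 ± 0.051), Bhlhe41 (6.61 ± 0.20) and Helt (6.02 ± 0.017). Hes2 (5.18 ± 0.033) and Hes3 (5.11) were not above, so 4 of 6 passed, beside 59.1% of all genes. At the 99th percentile the count was 2 of 6, beside 44.9% of all genes. Hes proteins recruit Groucho corepressors. Of 6 measured Groucho genes, 5 were above, beside 59.1% of all genes: Tle1 (8.92 ± 0.080), Tle3 (11.21 ± 0.086), Tle4 (10.72), Tle5 (10.84), a short family member, and Tle6 (5.87). Tle2 (5.70) was not. Tle6 had a margin of only 0.25 and lay under the 99th percentile of the receptors on each array.

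Genes of BMP signalling, which lies upstream of the Id genes, were read in the same way. Of 14 receptor and Smad genes, 13 were above (92.9%, beside 59.1% of all genes), including Bmpr1a (11.34), Bmpr1b (9.46 ± 0.051), Bmpr2 (12.15), Acvr1 (7.95 ± 0.050), Acvr2a (8.25 ± 0.036) and Acvr2b (6.98). Acvrl1, an endothelial BMP receptor gene, had 5.41 ± 0.26 and was not above. Of 13 ligand and antagonist genes, 9 were above, a share of 69.2% that is near the 59.1% of all genes. The ligand genes Bmp4 (11.15), Bmp6 (6.66) and Bmp7 (8.04 ± 0.011) and the antagonist genes Nog (7.12), Chrd (5.87) and Fst (7.24) were among them. Chrd had a margin of only 0.25 and lay under the 99th percentile of the receptors on each array. Bmp6 lay just under that percentile on array 3. The ligand genes Bmp2 (5.07), Bmp5 (4.78 ± 0.11) and Gdf6 (4.73) and the antagonist gene Grem1 (4.94) were not.

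Partners and targets of the repressors were also listed. All 3 E protein genes, the partners that Id proteins capture, were above, beside 59.1% of all genes: Tcf3 (8.87 ± 0.12), Tcf4 (11.78) and Tcf12 (11.80). Of 13 measured proneural and neuronal differentiation genes, a group that includes textbook targets of Hes repression, 5 were above and 8 were not, a share of 38.5% beside 59.1% of all genes. Neurog2 (7.52 ± 0.083), Neurod2 (6.72), Atoh7 (6.72 ± 0.16), Insm1 (7.55 ± 0.072) and Myt1 (9.58 ± 0.060) were above. Neurog1 (5.40 ± 0.063), Neurog3 (4.75 ± 0.22), Neurod1 (5.07 ± 0.18), Neurod4 (5.72 ± 0.18) and Atoh1 (5.67 ± 0.14) were not, nor was Neurod6. The median margin of this list was 0.041, beside 0.76 over all genes. Its count depended on the reference: 8 of 13 were above with the 90th percentile, beside 66.7% of all genes, and 3 of 13 with the 99th, beside 44.9%. At the 90th percentile the list was therefore close to the share of all genes. Without a test, 5 of 13 exceeded the 99th percentile on each array, beside 46.6% of all genes. The shift of that level between arrays enters the tested count of 3.

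Other regulators were above in 10 of 11 cases, beside 59.1% of all genes. Stat3 (11.70), the cytokine receptor genes Lifr (9.71) and Il6st (11.39), Gli2 (7.65 ± 0.13), Gli3 (9.01 ± 0.039) and Srebf1 (9.53 ± 0.066) were the first of them, and Gli1 (4.81 ± 0.069), the Hedgehog pathway factor, was not above. Over the 11 lists, 89 of 107 measured genes were above the reference level (83.2%, beside 59.1% of all genes). The lists were chosen with earlier results of these data known, and the receptor genes lower the share of all genes. The gap between these shares therefore does not measure an enrichment.

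**Figure D4:**
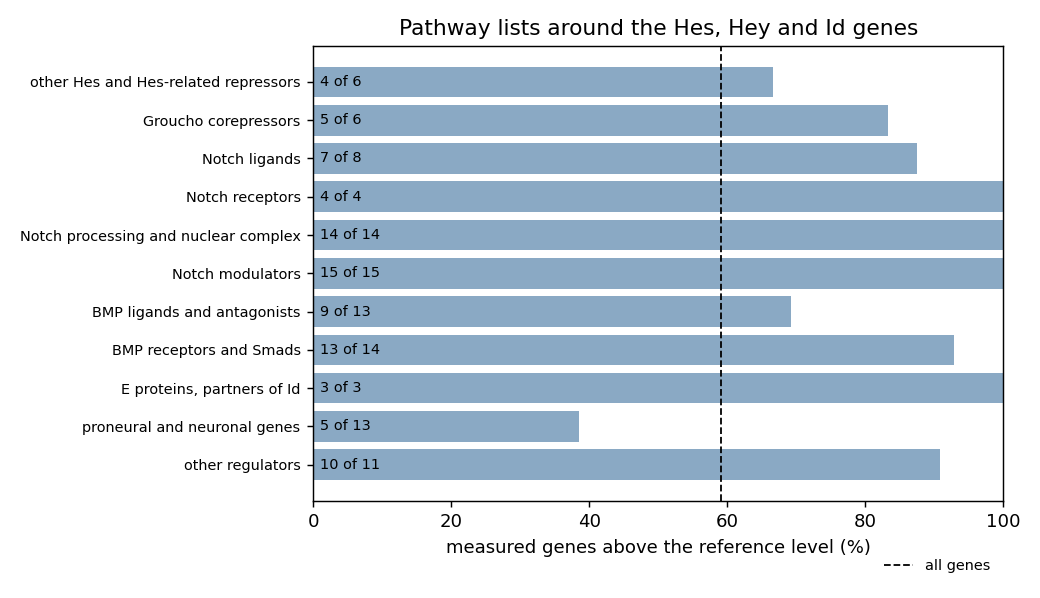
Share of measured genes above the reference level (x axis, %) in each of the 11 pathway lists (y axis), with the counts in the bars. The dashed line is the share over all genes (59.1%): the list of proneural and neuronal genes (5 of 13) is the one whose bar ends under it at this level. In the limma test at the 99th percentile, Notch ligands (3 of 8) and other Hes-related repressors (2 of 6) also lay under the share of all genes (44.9%).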

How the data were processed

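The authors deposited log2 signals of 41345 probe sets on 3 arrays, which their processing notes credit to RMA, a method that corrects background, normalises between arrays and combines the probes of a set. Version and options are not given in the sources used here. An annotation table of the array gave 1 gene symbol to 23521 probe sets, several to 1814 and none to 16010. Only the first were named, and 1082 of the 22180 genes had several probe sets. Margins over the reference level were tested with limma 3.58.1 (R 4.3.3, intercept only, eBayes with an intensity trend). Prior degrees of freedom were infinite, so p-values used the shared spread alone. On simulated data with 22180 genes, 50 of 50 genes set 0.5 log2 units over the level were recovered, with 0 false calls among 5757 genes placed 0.5 log2 units or more below it. The simulated noise was small beside that distance and lacked the ties of the deposited values. Unchanged genes nearer the level were not counted, so the simulation does not show how often such genes are falsely called. Array number, n = 3, limits the precision. The genes and lists were chosen with earlier results of these data known, and the motifs with the sequences in view. All 10 members were named. So were all genes of lists of 8 or fewer, and of longer lists up to 6 above and 6 not above the level in the order written, with up to 3 and 3 for markers. No gene was named for a like pattern, since 3 arrays give 3 points. Alternatives changed the reference, probe set, scaling, model and filter, and left out each replicate. Python 3.11.15, pandas 2.3.3 and matplotlib 3.10.9 were used for sequences and figures.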

Additional observations from a re-analysis of the deposited data

How the results depend on the processing

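All 10 members were called in 11 of 14 alternatives. Some of these could hardly change a call. The filter to genes over the median signal called 100% of the genes it kept, and the median shift moves signals and level alike. Of the members, only Hes5 could change with the probe set, since 9 have 1 probe set. Outside the median filter, 43.5% to 66.7% of all genes were called. The count of members was 8 with the 99th percentile or the second set of reference genes. It was 9 when each array had to exceed the 99th percentile, a rule added after the data were seen. Hes1 had margins of 0.38 and 0.34 under the first pair of settings, and Heyl had 0.12 and 0.085. Under the added rule Heyl also had 0.12 and failed on array 3. The other 8 members kept their calls in all 14 alternatives. Leaving out each replicate gave 10 members each time and 86 to 90 genes of the pathway lists. Those lists had 70 to 94 genes above over all alternatives, against 89. The count of members that differ between arrays was 0 in each setting, a test that recovered 0 of 100 added changes. No paired analysis was possible because the series holds 1 group.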
